A study of Homo sapiens with 3 samples.

Results

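The genes described here make cholesterol and fatty acids. They are 41 named genes: the enzymes of the mevalonate and sterol pathway, the fatty acid synthesis enzymes, desaturases, elongases and acyl-CoA synthetases, the lysophospholipid acyltransferase LPCAT1, and the regulators of the SREBP transcription factors. They were chosen by name and known role, with earlier results of these data known, and all 41 matched 1 row each among the 60880 gene rows of the count file. The cells were NCI-H1975, an established human lung adenocarcinoma line, in the wild-type state, that is, without acquired resistance to the kinase inhibitor anlotinib, grown in medium with fetal calf serum. The study also concerned anlotinib-resistant cells and resistant cells with knockdown of the transcription factor TFAP2A, which were not analysed here. Values came from 1 RNA-seq library, wild-type replicate 2, and the 2 wild-type ATAC-seq samples of the same line are known here by their labels only. A single library gives no spread between replicates and no test between conditions, so every interval below is a 95% interval for counting error alone.

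Cholesterol is built from acetyl-CoA through mevalonate, farnesyl diphosphate, squalene and lanosterol, and fatty acids are built from the same precursor by carboxylation and repeated condensation. Both routes are driven by SREBP factors, membrane proteins that SCAP escorts from the endoplasmic reticulum to the Golgi for cleavage when sterols are scarce, while the INSIG proteins hold them back when sterols are plentiful. In the lung, alveolar epithelial cells use fatty acid synthesis and phospholipid remodelling to make surfactant, and many carcinomas maintain fatty acid synthesis even where lipid is supplied from outside.

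Promoter sequences are given first, since SREBP factors act at sterol regulatory elements, usually together with the factors NF-Y and Sp1. Of the 41 genes, 37 had at least 1 promoter window in a RefSeq table (GRCh38.p14), 53 windows in all, each from 250 bases before to 50 bases after an annotated start. ACAT2, FASN, FDFT1 and SQLE had no window, so their promoters were not searched. The sterol element core TCACNCCAC, searched on both strands, occurred in the windows of 2 genes, SREBF2 and ACSL1, or 5.41% of the 37, against 1.47% of 10836 detected protein-coding genes with a window. These are shown because they are the only ones of the 37 with that core in a window, here in capitals on the strand of the gene, beside the NF-Y box CCAAT, also in capitals. Read from the opposite strand, that box is ATTGG.
SREBF2, chr22:41832912-41833040, plus strand: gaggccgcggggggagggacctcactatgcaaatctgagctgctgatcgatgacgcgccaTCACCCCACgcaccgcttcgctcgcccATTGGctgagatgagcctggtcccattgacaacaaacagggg
ACSL1, chr4:184805727-184805803, minus strand: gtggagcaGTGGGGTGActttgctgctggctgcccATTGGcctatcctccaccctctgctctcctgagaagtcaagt

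In SREBF2 the core lay at positions -133 to -125 from the start and the NF-Y box at -106 to -102. In ACSL1, in 1 of its several windows, they lay at -242 to -234 and -215 to -211. Both a core and an NF-Y box in 1 window were found for 0.480% of detected protein-coding genes. A match is a description of letters, and the absence of this core elsewhere says nothing about the factor, since functional elements vary around it.

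The NF-Y box was found on either strand for 26 of the 37 genes, or 70.3%, against 42.9% of detected protein-coding genes. By role, only genes with a window were counted. The box was present in 5 of 6 mevalonate genes and 8 of 9 genes of the steps from squalene to cholesterol. It was also present in 3 of 3 fatty acid synthesis genes, with FASN not searched, and in 4 of 5 desaturases. By contrast, it was present in 2 of 5 regulators, 2 of 4 elongases and 2 of 5 genes of the acyl-CoA synthetase and LPCAT1 group. The Sp1 box GGGCGG was found for 34 of 37 genes, or 91.9%, against 76.3% of detected protein-coding genes. Different motifs were counted separately and may overlap, and the NF-Y and Sp1 shares depend on base composition, whose part in the difference was not tested. For the 4 enzyme roles in which the box was most frequent, the box nearest the start is shown in capitals for the member with the most reads among those that hold it before the start.
FDPS, chr1:155308785-155308849, plus strand: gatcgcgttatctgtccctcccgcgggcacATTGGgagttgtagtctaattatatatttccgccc
LSS, chr21:46228890-46228954, minus strand: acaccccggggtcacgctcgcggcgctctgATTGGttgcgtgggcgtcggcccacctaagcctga
ACLY, chr17:41919023-41919075, minus strand: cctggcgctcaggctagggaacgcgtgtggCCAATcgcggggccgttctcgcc
SCD, chr10:100347017-100347081, plus strand: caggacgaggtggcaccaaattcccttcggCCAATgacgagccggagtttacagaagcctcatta

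The library held 25012733 counts, and a gene with at least 10 counts was called detected. Levels are in CPM, counts per 1000000 counts of the library, so that each count was worth 0.040 CPM and a gene at 0 was given a limit of 3 counts, or 0.120 CPM (the upper end of its Poisson interval is 0.147 CPM). Transcript length was not corrected for, and no lengths were used here, so genes are ranked by their reads, which need not be the ranking of their molecules. The keratins KRT7, KRT8, KRT18 and KRT19, E-cadherin (CDH1), the lung lineage factor NKX2-1 and the lung protease gene NAPSA were all detected, from 23.8 to 5299 CPM. Of 8 markers of hepatocytes and adipocytes, which are strongly lipogenic, only PLIN1 reached the minimum, with 21 counts. The others had between 0 and 3 counts, with APOA1, APOB, TTR, ADIPOQ and CIDEC at 0. Of 8 leukocyte, endothelial and fibroblast markers only VWF did, with 10 counts, while TIE1, DCN and LUM were at 0.

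All 41 genes were detected, where 69.7% of 19056 protein-coding genes were. Nothing is read from that count, since relatives at 0 (ELOVL2, ELOVL4, FADS6 and ACSL6) lie outside the set and the set was drawn up with results of these data known. Their median was 71.1 CPM, beside 26.4 CPM for the 13279 detected protein-coding genes, and 30 of 41 lay above that median, against 50% of those genes. Within the top 10% of detected protein-coding genes, which began at 144 CPM, were 9 of the 41, or 22.0%, against 10% by definition. Together the genes took 144085 counts, or 0.576% of the library (0.573 to 0.579). FASN, LPCAT1, SCD, SREBF1 and ACLY held 54.7% of these reads. The remaining 36 genes had 4 in the top 10%, or 11.1%. The 5 left out are those with the highest counts, so this share cannot be set against the 10% of all detected protein-coding genes. Choosing the set with results known also bears on its median and on these shares, and its part was not tested.

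**Figure D1:**
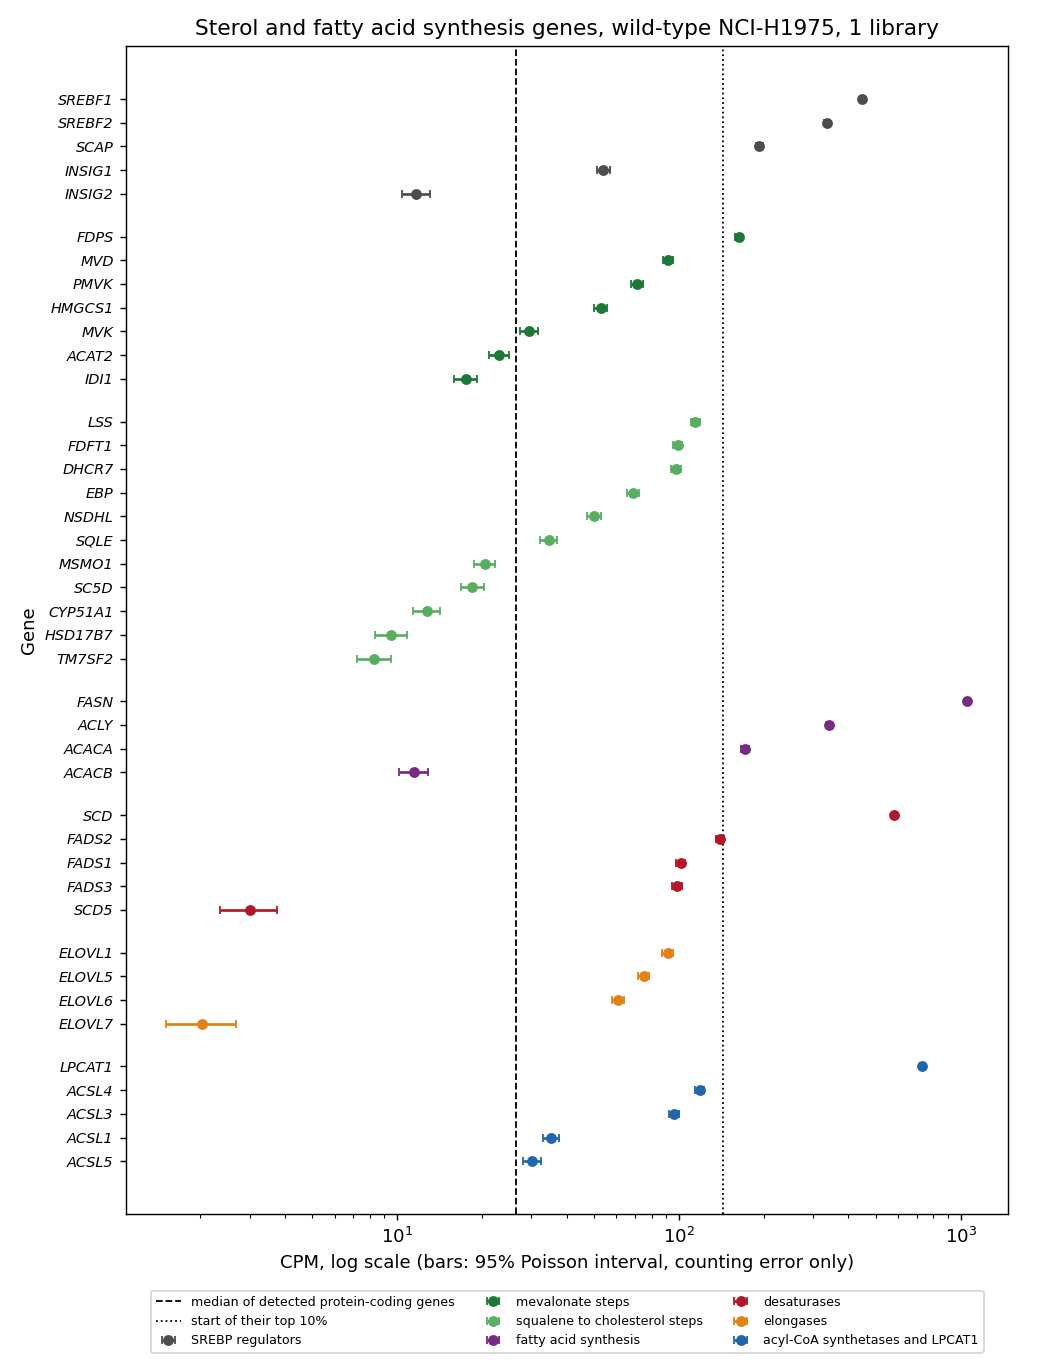
Levels of the 41 genes in CPM on a log axis, grouped by role and ordered by read number within a role. Points are the 1 library, bars are 95% Poisson intervals, the dashed line is the median of detected protein-coding genes (26.4 CPM) and the dotted line the start of their top 10% (144 CPM). FASN, LPCAT1 and SCD lie farthest right and ELOVL7 and SCD5 farthest left.

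Among the 5 regulators, SREBF1, SREBF2 and SCAP lay in the top 10% of detected genes and the INSIG genes did not. SREBF1, whose product drives mainly fatty acid synthesis, had 11214 counts (identifier ENSG00000072310.16_3), or 448 CPM (440 to 457). That exceeded 98.1% of detected protein-coding genes. SREBF2, whose product drives mainly sterol synthesis, had 8363 counts, or 334 CPM (327 to 342). The ratio of SREBF2 to SREBF1 counts was 0.746 (0.725 to 0.767), so SREBF1 had more reads beyond counting error. SCAP, the sterol-sensing escort, had 4835 counts, or 193 CPM (188 to 199).

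INSIG1, the retention protein that is itself an SREBP target, had 1349 counts, or 53.9 CPM (51.1 to 56.9). INSIG2, its more constant relative, had 293 counts, or 11.7 CPM (10.4 to 13.1). INSIG1 thus had 4.60 times (4.05 to 5.24) the reads of INSIG2, which lay below the median of detected genes. SREBF1 and SREBF2 host the microRNA genes MIR33B and MIR33A in their introns, whose rows had 4 and 1 counts. A library of this kind does not capture mature microRNAs well, so those counts say little about them.

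The mevalonate enzymes were spread around 52.9 CPM, with the median member HMGCS1. Of the 7, 5 lay above the median of detected genes and 1, FDPS, lay in the top 10%. ACAT2, the cytosolic thiolase that joins acetyl-CoA units, had 576 counts, or 23.0 CPM (21.2 to 24.99). HMGCS1, the cytosolic synthase of the next step, had 1322 counts, or 52.9 CPM (50.04 to 55.8). The kinases MVK and PMVK had 737 and 1779 counts, or 29.5 and 71.1 CPM, and the decarboxylase MVD had 2282 counts, or 91.2 CPM.

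IDI1, the isomerase that makes the reactive isoprene unit, had 438 counts and was the lowest of the group by read number at 17.5 CPM (15.9 to 19.2). FDPS, which assembles farnesyl diphosphate and is the target of bisphosphonate drugs, had 4079 counts, or 163 CPM (158 to 168). The group's reads were therefore unevenly spread, with 36.4% of its 11213 counts on FDPS. Against related genes outside the set, IDI1 had 146 times (49.6 to 711) the reads of IDI2, which had 3 counts. ACAT2 had 0.469 times (0.424 to 0.518) the reads of ACAT1, the mitochondrial thiolase.

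The 11 genes of the steps from squalene to cholesterol had a median of 34.5 CPM and none in the top 10%. FDFT1, squalene synthase and the entry to sterols, had 2478 counts, or 99.1 CPM (95.2 to 103). SQLE, the epoxidase that follows it and a control point of the route, had 864 counts, or 34.5 CPM (32.3 to 36.9), which is 0.349 times (0.322 to 0.377) the FDFT1 reads. LSS, which closes the ring to give lanosterol, had 2866 counts, the highest of the group, or 115 CPM (110 to 119).

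After lanosterol the read numbers divided. EBP, a sterol isomerase, had 1722 counts, or 68.8 CPM, NSDHL, a dehydrogenase of the demethylation steps, had 1248 counts, or 49.9 CPM, and DHCR7, a reductase of the last steps, had 2440 counts, or 97.6 CPM. Below the median of detected genes lay the methylsterol oxidase MSMO1 with 512 counts, the desaturase SC5D with 463, the lanosterol demethylase CYP51A1 with 319, the ketoreductase HSD17B7 with 239 and the sterol reductase TM7SF2 with 207, from 20.5 down to 8.28 CPM. LBR, the lamin B receptor, which carries the same reductase activity as TM7SF2, had 1168 counts, so that TM7SF2 had 0.177 times (0.152 to 0.206) its reads. HSD17B7 has a pseudogene copy, HSD17B7P2, with 32 counts, and the ratio of HSD17B7 to HSD17B7P2 counts was 7.47 (5.15 to 11.2).

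**Figure D2:**
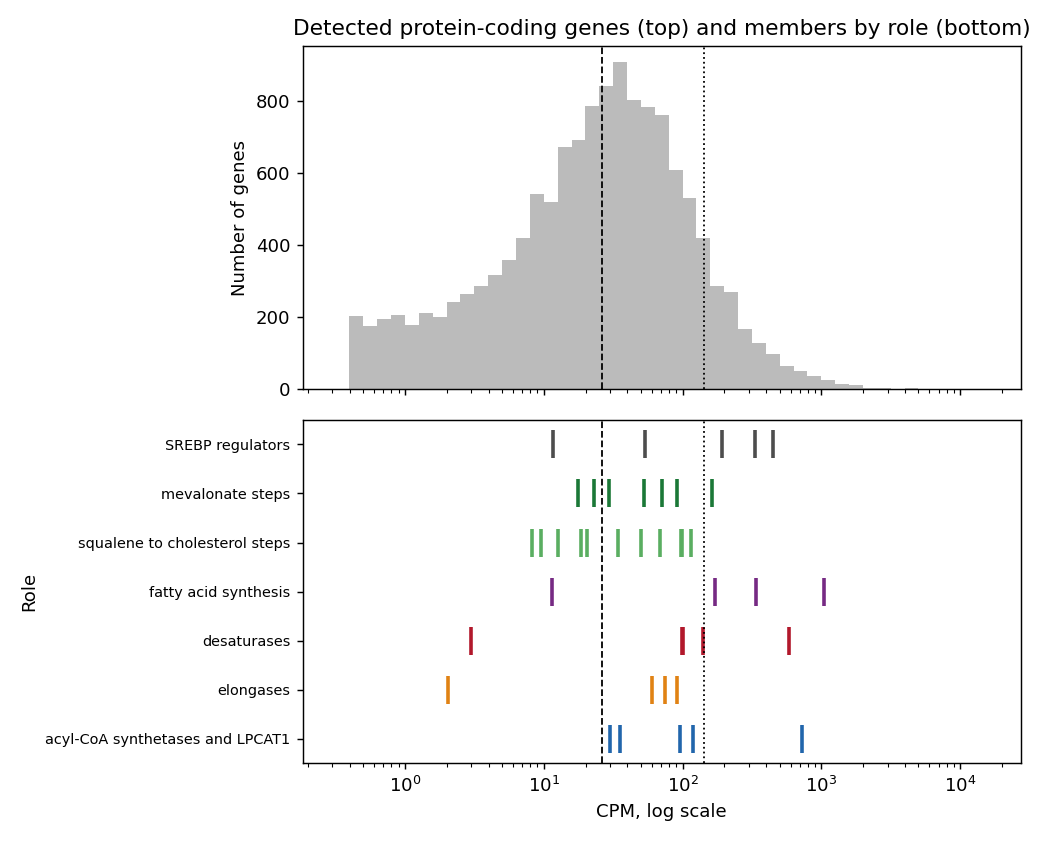
Above, the number of detected protein-coding genes by CPM on a log axis, and below, each of the 41 genes as a mark on the same axis in its role. The dashed and dotted lines stand at 26.4 and 144 CPM, and the marks of the steps from squalene to cholesterol all lie left of the dotted line, whereas 3 of 4 fatty acid synthesis genes lie right of it.

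Fatty acid synthesis took the most reads of any role, 39395 counts, or 27.3% of those of the 41 genes. FASN, the fatty acid synthase that makes palmitate, had 26277 counts (identifier ENSG00000169710.8_3), or 1051 CPM (1038 to 1063), more than 99.5% of detected protein-coding genes. ACLY, which splits citrate into cytosolic acetyl-CoA, had 8529 counts, or 341 CPM (334 to 348). ACACA, the cytosolic acetyl-CoA carboxylase that commits carbon to fatty acids, had 4302 counts, or 172 CPM (167 to 177). The ratio of FASN to ACLY counts was 3.08 (3.01 to 3.16) and that of FASN to ACACA counts 6.11 (5.91 to 6.31).

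The carboxylases differed widely in reads. ACACB, the form at the mitochondrial surface, whose product restrains fatty acid oxidation, had 287 counts, or 11.5 CPM (10.2 to 12.9), below the median of detected genes. ACACA had 15.0 times (13.3 to 17.0) its reads. ACLY had 4.12 times (3.93 to 4.33) the reads of ACSS2, which makes cytosolic acetyl-CoA from acetate and had 2070 counts.

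Among the desaturases, SCD stood far from its relative SCD5. SCD, which places the double bond that turns stearate into oleate, had 14525 counts, or 581 CPM (571 to 590), more than 98.7% of detected protein-coding genes. SCD5, which catalyses the same reaction and has a narrower tissue range, had 75 counts, or 2.998 CPM (2.36 to 3.76). The ratio of SCD to SCD5 counts was 194 (154 to 246), the highest value among the 26 pairs of related genes with a count in both, although the interval of IDI1 to IDI2 reached 711.

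FADS2 and FADS1, the desaturases of polyunsaturated fatty acid synthesis, had 3513 and 2538 counts, or 140 CPM (136 to 145) and 101 CPM (97.6 to 105). FADS3, a related desaturase of the same gene cluster, had 2460 counts, or 98.3 CPM (94.5 to 102). FADS2 had the most reads of the 3, with a ratio to FADS3 of 1.43 (1.36 to 1.504). The ratio of FADS1 to FADS3 counts was 1.03 (0.976 to 1.09), which counting error does not separate from equal reads. FADS6 was at 0. FADS1 and FADS2 overlap in the RefSeq annotation, so part of their reads could be assigned to either.

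Of the elongases, 3 had similar read numbers and 1 was low. ELOVL1, which extends saturated chains to very long lengths, had 2281 counts, or 91.2 CPM (87.5 to 95.01). ELOVL5, which extends polyunsaturated chains, had 1879 counts, or 75.1 CPM (71.8 to 78.6). ELOVL6, which extends palmitate to stearate, had 1519 counts, or 60.7 CPM (57.7 to 63.9). Neighbours in this order differed by a factor of 1.21 (1.14 to 1.29) and 1.24 (1.16 to 1.32), beyond counting error.

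ELOVL7 had 51 counts, or 2.04 CPM (1.52 to 2.68), the fewest of the 41 genes, and ELOVL6 had 29.8 times (22.5 to 40.2) its reads. Outside the set, ELOVL3 had 35 counts, and ELOVL2 and ELOVL4, elongases of long and very long polyunsaturated chains, were at 0.

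The acyl-CoA synthetases activate fatty acids before they enter lipids. ACSL4, which prefers arachidonate and is known for its role in ferroptosis, had 2970 counts, or 119 CPM (115 to 123). ACSL3, associated with lipid droplets, had 2412 counts, or 96.4 CPM (92.6 to 100.4). ACSL1 and ACSL5 had 879 and 752 counts, or 35.1 and 30.1 CPM. ACSL3 had 0.812 times (0.769 to 0.857) the reads of ACSL4 and 2.74 times (2.54 to 2.97) those of ACSL1, and ACSL4 had 3.95 times (3.64 to 4.28) those of ACSL5. The ratio of ACSL5 to ACSL1 counts was 0.856 (0.775 to 0.944), and ACSL6 was at 0.

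LPCAT1, the acyltransferase that makes the saturated phosphatidylcholine of surfactant, had 18211 counts (identifier ENSG00000153395.9_2), or 728 CPM (718 to 739), second to FASN by read number. It lay above 99.1% of detected protein-coding genes. LPCAT4, LPCAT3 and LPCAT2 had 1042, 1002 and 604 counts, and LPCAT1 had 17.5 (16.4 to 18.6), 18.2 (17.1 to 19.4) and 30.2 (27.8 to 32.8) times their reads.

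**Figure D3:**
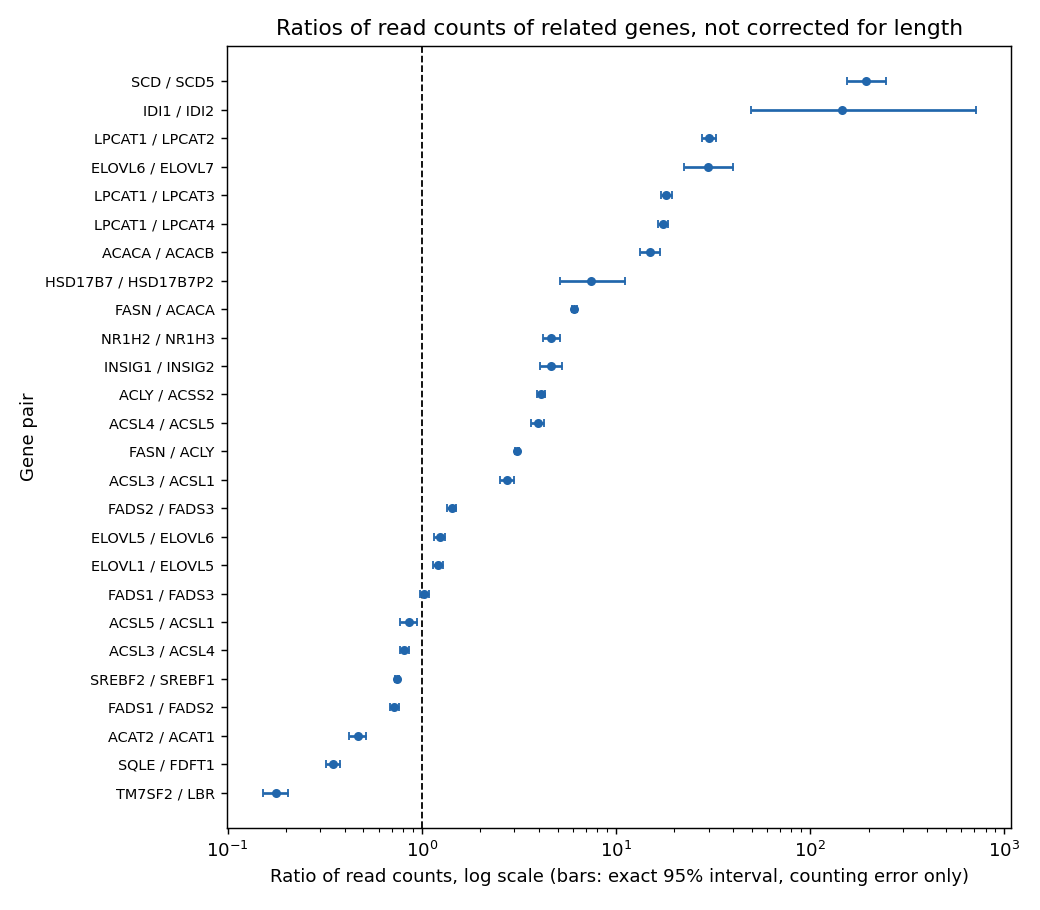
Ratios of read counts for 26 pairs of related genes on a log axis, with exact 95% intervals for counting error and a dashed line at equal reads. SCD over SCD5 (194) and IDI1 over IDI2 (146) lie highest and TM7SF2 over LBR (0.177) lowest, and the interval of FADS1 over FADS3 crosses the line.

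Set side by side, the 18 enzymes of the mevalonate and sterol steps had 24571 counts, or 0.0982% of the library (0.0970 to 0.0995), and the 18 genes of fatty acid synthesis, modification and activation, LPCAT1 included, had 93460 counts, or 0.374% (0.371 to 0.376). Their medians were 42.2 and 97.4 CPM. In the top 10% of detected genes were 1 of the former and 5 of the latter. Without LPCAT1 the latter had 75249 counts, or 0.301% (0.299 to 0.303), a median of 96.4 CPM and 4 genes in the top 10%. These genes differ in transcript length, whose part in this difference was not tested.

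Related lipid genes outside the set were read from 6 lists of 74 genes, of which 70 were detected, against 69.7% of all protein-coding genes. These lists too were chosen with earlier results of these data known, so nothing is read from their detection counts. The processing of SREBP factors and the sensing of sterols had 9 of 9 genes detected, with a median of 45.8 CPM. It was led by MBTPS1, the Golgi protease that cuts SREBP factors, at 5418 counts, followed by the ubiquitin ligase RNF145 at 5081 counts. The other SREBP protease, MBTPS2, had 849 counts. Of the sterol-sensing liver X receptors, NR1H2 had 2208 counts and NR1H3 had 477, a ratio of 4.63 (4.19 to 5.12).

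Genes of cholesterol handling had 11 of 13 detected and a median of 55.7 CPM among them. The lysosomal exporters NPC1 and NPC2 had 5971 and 3215 counts and the lipoprotein receptor SCARB1 had 2664. The exporter ABCG1 was at 0, the hydroxylase CH25H had 6 counts, and the esterifying enzyme SOAT2 had 10 against 1392 for SOAT1. Isoprenoid branch genes had 12 of 13 detected and the lowest median of the 6 lists, 21.6 CPM, with IDI2 under the minimum. Their highest counts were 1057 for RABGGTA, 898 for DHDDS and 695 for FNTA, which act in protein prenylation or dolichol synthesis.

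Acetyl-CoA supply and elongation partners had 13 of 14 detected, with a median of 45.1 CPM. They were led by the citrate carrier SLC25A1 at 4745 counts, the enoyl reductase TECR at 4555 and ACSS2 at 2070, whereas THRSP, a lipogenic gene of liver and fat, had 3 counts. Glycerolipid synthesis and remodelling had 13 of 13 detected with a median of 41.7 CPM, led by AGPAT2 at 2155, CHKA at 2017 and PCYT1A at 1927 counts. Fatty acid oxidation had 12 of 12 detected with a median of 35.4 CPM. It was led by ACADVL, the very long-chain dehydrogenase, at 14132 counts, HADHA at 5825 and ECHS1 at 3611.

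**Figure D4:**
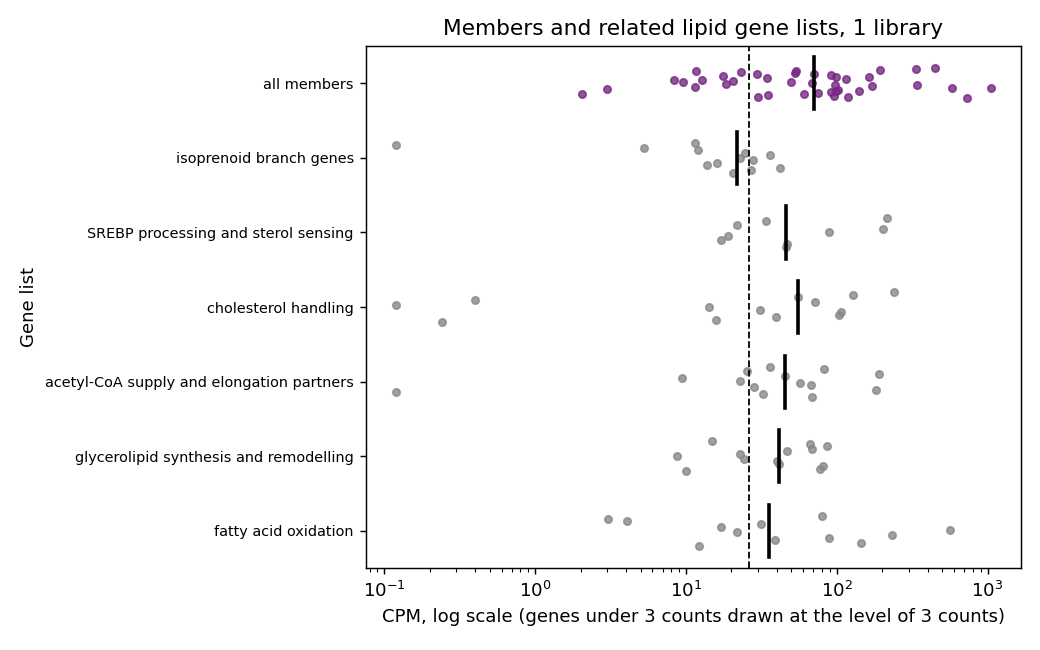
CPM of the 41 genes and of 6 lists of related lipid genes on a log axis. Each point is a gene in the 1 library, black bars are medians of detected genes and the dashed line is the median of detected protein-coding genes (26.4 CPM). The isoprenoid branch has the lowest median (21.6 CPM) and the 41 genes the highest (71.1 CPM). The 41 genes and the lists were chosen with earlier results of these data known.

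Genes next to or copied from the set bear on how reads were assigned, with the strand setting of the counting not given in the sources used here. In the RefSeq annotation 8 of the 41 genes overlap another protein-coding gene with a row. Among them, ACAT2 had 576 counts beside 2624 for TCP1, IDI1 had 438 beside 491 for WDR37, ACSL5 had 752 beside 929 for ZDHHC6, and SREBF1 had 11214 beside 5786 for RAI1. Long non-coding RNA genes overlapping the set had lower counts, with 438 for RUSC1-AS1 beside 4079 for FDPS, 130 for SREBF2-AS1 and 97 for INSIG1-DT. Without the strand setting, reads from such partners cannot be told apart, and the values of all genes with an overlapping partner are uncertain for that reason.

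NSDHL and ACACA start within 1000 bases of a protein-coding gene that runs the opposite way, away from them. NSDHL had 1248 counts and its neighbour CETN2, a centrin gene, had 1086. ACACA had 4302 and its neighbour TADA2A had 439. MVK and MMAB, a cobalamin enzyme gene, also start close together on opposite strands, with 737 and 684 counts, but their annotations overlap, as do those of IDI1 and WDR37 and of FADS1 and FADS2. Pseudogene copies took few reads: 18 copies of 6 genes had 54 counts in all, of which HSD17B7P2 had 32, and the 8 copies of FDPS had 8 together. Reads that match a gene and its copy equally could have been dropped, which would lower the gene.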

How the data were processed

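Per the labels, total RNA obtained with Trizol went into a directional NEBNext library. The authors deposited raw read counts per Ensembl gene. STAR, featureCounts and hg19 are named in the submitters' processing notes, without roles. Overlapping, antisense and copied genes are uncertain, with annotation release, strand setting and handling of multi-mapped reads not given in the sources used here.

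Symbols were assigned by Ensembl identifier, ignoring versions, for 56373 of 60880 rows that held 99.8% of counts, leaving aside 41 rows of Y pseudoautosomal copies. Gene types, overlaps and promoter windows came from RefSeq (GRCh38.p14), and none of its coordinates were joined to hg19. CPM used the total of all rows. Levels have exact (Garwood) Poisson intervals, shares exact (Clopper-Pearson) binomial intervals and ratios exact conditional intervals, all 95%. Intervals and the floor of 3 counts cover counting error only, because there was 1 library. PCR copies of a molecule could not be recognised, so the intervals may be too narrow even for counting error. Named genes were all 41 members, 26 gene pairs, and of each other list the 3 genes with the highest counts and those under 10 counts. MBTPS2, SOAT1, SOAT2, the other epithelial markers and the neighbours were named after their values were seen. A few genes of the lists are not reported here. The members and lists were chosen with earlier results of these data known. The code was tested on simulated counts. Calculations ran in Python 3.11.15 with SciPy 1.17.1, NumPy 2.4.6 and pandas 2.3.3, and plots in Matplotlib 3.10.9.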

Additional observations from a re-analysis of the deposited data

How the results depend on the processing

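All 41 genes stayed detected at a minimum of 1 count, 50 counts or 1 CPM and after random thinning of the counts to 50%. The lowest, ELOVL7, had 51 counts, or 2.04 CPM, so those minima could not lose a gene. Thinning, with the minimum kept at 10 counts, was very unlikely to lose a gene either. Nothing is read from this check. Without mitochondrial genes in the total, every CPM rose by a factor of 1.06, the median became 75.2 CPM and the share 0.609%. With the 10 most-read genes left out of the total, the factor was 1.08, the median 76.5 CPM and the share 0.620%. Without FASN the share was 0.471%. The median gene lay above 76.9% of detected protein-coding genes, 82.6% of all detected gene types and 79.5% of protein-coding genes with at least 1 count. The count in the top 10% was 9, 11 and 10 on these backgrounds, and the count above the median 30, 34 and 31. After thinning, which was a single random draw from the same counts, 23 of 26 ratios stayed inside their intervals. The others became 43.2 for ELOVL6 to ELOVL7, 17.0 for LPCAT1 to LPCAT3 and 19.6 for LPCAT1 to LPCAT4. The ratio of IDI1 to IDI2 fell from 146 to 73, inside its wide interval. Such a draw changes depth and counting error only, so these moves say nothing about other processing. The alternatives per kilobase of coding length and the identities between paralogous proteins were not run, because no coding lengths or protein sequences were used here. Among the ratios, depth limits those with SCD5, ELOVL7, HSD17B7P2 or IDI2 most, with 75 counts or fewer in the denominator. No paired analysis was possible because the RNA-seq values come from a single library.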
